A study of Homo sapiens with 4 samples.

Results

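The genes that build the cornified envelope and the epidermal barrier were followed by RNA sequencing in FaDu cells. FaDu is a long-established squamous carcinoma line of human hypopharynx. The set is a list of 40 genes named for their roles in terminal keratinocyte differentiation, among 60649 gene rows in the count table, and each of the 40 was found in the table by its symbol. LORICRIN is the current symbol of the gene long called LOR. Cells with an empty vector were compared with cells overexpressing TINCR that carries HA and FLAG tags (TINCR-HA-FLAG), with 2 libraries per group and 4 in all. Both groups are the same line in the same medium, and the sources used here do not give the construct's promoter or its way into the cells. Since the series calls its replicates technical, p-values here measure no more than the spread between libraries.

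The cornified envelope is the protein shell that replaces the plasma membrane of a keratinocyte as it dies at the skin surface. Transglutaminases crosslink involucrin, loricrin and small proline-rich proteins onto a scaffold of envoplakin and periplakin, ceramides are then bound to the outside, and filaggrin packs the keratin filaments within. Kallikrein proteases later cut the corneodesmosomes that hold the dead cells together. TINCR was described as an RNA induced in this program in epidermis, and FLG, ALOX12B, ALOXE3, ABCA12 and CASP14 are among its published targets there.

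As a check of the labels, TINCR had 3.97 and 3.77 counts per 1e6 counts (CPM) in the empty vector libraries against 104 and 133 CPM, a log2 fold change of 4.93 (SE 0.17). Total counts ran from 17069533 to 22331602 per library. CPM was taken on library totals rescaled between libraries by TMM factors. On that scale 3 counts, the limit that a count of 0 allows, correspond to 0.135 to 0.177 CPM. Mitochondrial genes took 7.58% to 11.4% of the counts, more in replicate 1 than in replicate 2 of both groups. The squamous label held: all 7 squamous epithelial markers passed the filter on low counts, with summed levels of 6090 to 8585 CPM. The 4 leukocyte markers summed to 0.295 to 0.543 CPM and none of them passed. Some markers of other types did pass, at lower sums. These were 5 of 6 fibroblast (41.8 to 50.9 CPM), 2 of 4 endothelial (10.6 to 14.2 CPM) and 2 of 4 melanocyte markers (6.65 to 8.04 CPM). The squamous markers had 7447 and 8585 CPM in the empty vector libraries and 6090 and 7402 CPM with TINCR-HA-FLAG. All 7 had a negative log2 fold change (median -0.32), and 1 of them, KRT14, was called lower in edgeR, beside 0.0959% of all genes tested. In 6 of the 7 both TINCR-HA-FLAG libraries lay below both others, beside 17.9% of all genes tested. An unadjusted edgeR p under 0.05 was found for 3 of the 7, beside 10.2%. DESeq2 called 2 of the 7, beside 0.943%. The part of the squamous markers in the results on the barrier genes was not tested.

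Most of the terminal barrier program was at or near 0 in FaDu cells, while the genes expressed above 10 TPM (a level per gene length) were KLK5, KLK6, the plakin genes PPL and EVPL, TGM1, CSTA, DMKN, LYPD3 and CNFN. Of the 40 genes, 18 passed the filter on low counts, which is 45.0%, against 68.5% of 19878 protein-coding rows. LORICRIN, TGM3, CALML3 and ASPRV1 had no count in any library. The other 18 had counts but did not pass, and none of these 22 genes exceeded 20 counts in a library. In bulk RNA a low level can mean few expressing cells or little RNA per cell, and these cannot be told apart here.

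Scaled to gene length as TPM (transcripts per 1e6 transcripts), 9 of the 40 genes had a mean of at least 10 over the 4 libraries and 16 a mean of at least 1. KLK5 was highest at 307 ± 57.4 TPM (SD, n = 4 libraries of both groups), followed by KLK6 at 136 ± 28.1 and PPL at 124 ± 8.83. CSTA (59.6 ± 3.30), DMKN (46.7 ± 1.90), EVPL (35.8 ± 3.07), TGM1 (29.9 ± 2.08), LYPD3 (16.2 ± 2.75) and CNFN (13.4 ± 3.56 TPM) came next. KLK6 and PPL, neighbours in this order, did not differ beyond their spread between libraries. The place of DMKN depends on the length used, since its many transcripts give merged exons of 7444 bases against 2811 for the longest transcript, with which its level would be 124 TPM.

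**Figure D1:**
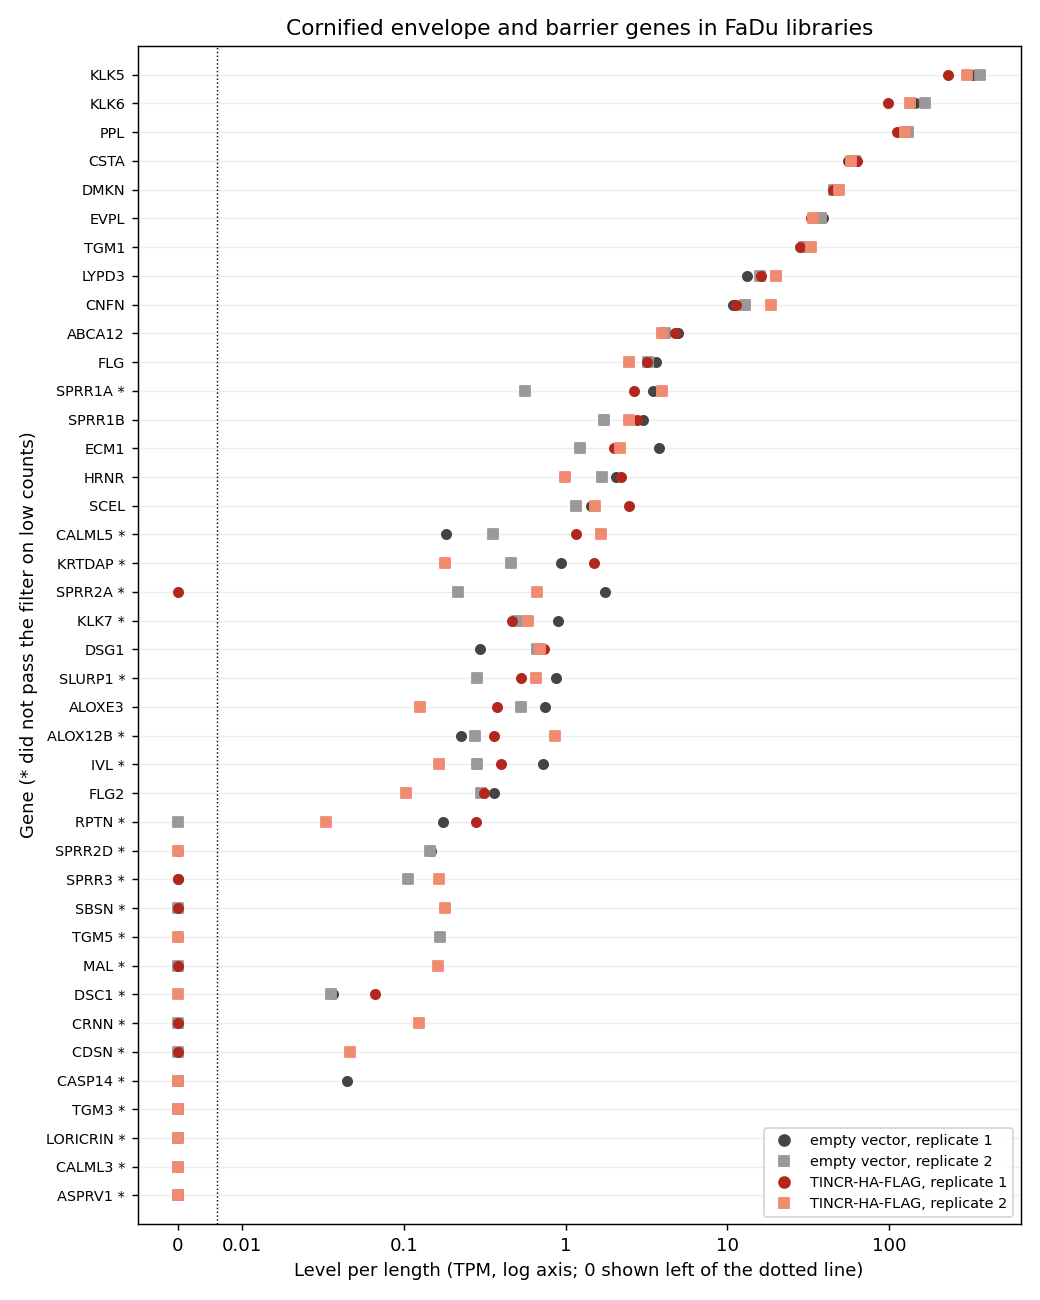
Level per length (TPM, log axis) of all 40 barrier genes in each of the 4 libraries, 1 point per library, with values of 0 left of the dotted line and an asterisk on the 22 genes that did not pass the filter. KLK5 is the highest gene in every library, and LORICRIN, TGM3, CALML3 and ASPRV1 are at 0 in all 4.

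With TINCR-HA-FLAG against the empty vector, no barrier gene passed the test for a change. In the edgeR quasi-likelihood test none of the 18 genes had an adjusted p under 0.05 (lowest 0.358), where 0.549% of all 18771 genes tested did (0.453% higher, 0.0959% lower). DESeq2 called none of the 18 either, against 0.943% of all genes. At an unadjusted p under 0.05 there were 2 of the 18, KLK5 and KLK6, both lower, against 10.2% of all genes. The median log2 fold change of the 18 was -0.10, with 8 positive and 10 negative, and that of all genes tested was 0.0042. The libraries of the 2 groups did not overlap in 8 of the 18 genes, or 44.4%, against 39.6% of all genes tested. With both directions together this share was near the background. By direction 2 of the 18 were higher and 6 lower, against 21.7% higher and 17.9% lower over all genes tested. For 11 of the 18 the 95% interval of the change lay within 1 on the log2 scale in both directions. For the other 7 the interval reached past a change of 1 on that scale. For SPRR1B, HRNR, TGM1, CNFN, DMKN, CSTA, ECM1 and ABCA12, leaving out 1 library turned the sign of the change. For the other 10 the sign held with each library left out, but the size moved by over 1.5 times for all but EVPL.

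**Figure D2:**
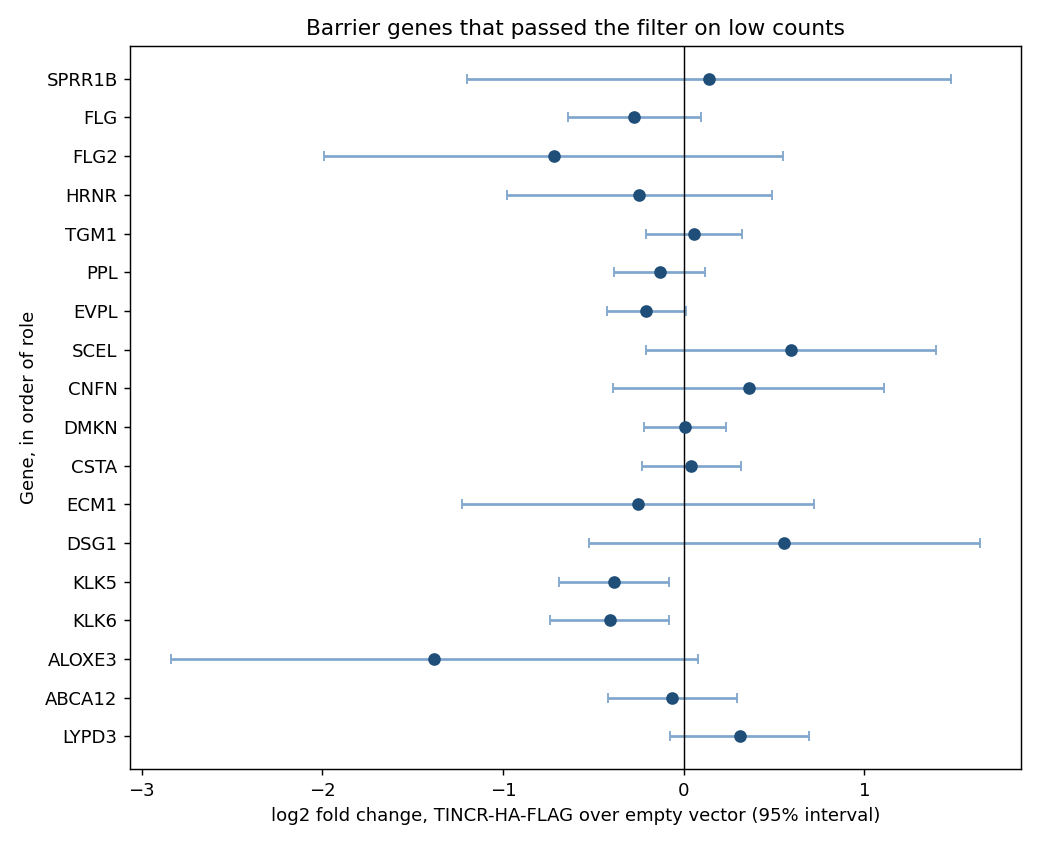
Log2 fold change of TINCR-HA-FLAG over empty vector for the 18 barrier genes that passed the filter, with 95% intervals from the edgeR fit (2 libraries per group), in order of role. The intervals of KLK5 and KLK6 alone leave out 0, without adjustment for the number of genes tested, and those of ALOXE3, FLG2 and SPRR1B are the widest.

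The precursors crosslinked into the envelope were nearly silent. IVL, which encodes involucrin, had 10 and 4 counts against 6 and 3 with TINCR-HA-FLAG. SPRR1B, a small proline-rich protein gene, was the only 1 of the 7 genes in this role to pass the filter, with 0.701 and 0.413 CPM against 0.652 and 0.586 CPM (log2 fold change 0.14, 95% interval -1.20 to 1.48). SPRR1A had 6 and 1 counts against 5 and 9, and its reads could be shared with the similar SPRR1B. SPRR2A, also one of a family of close copies, had 8 and 1 counts against 0 and 4. SPRR2D and SPRR3 had at most 2 counts in any library. The groups overlapped for IVL, SPRR1A, SPRR1B, SPRR2A and SPRR3. The annotation used for length holds only 270 bases of SPRR1A, so its level of 2.64 TPM is not comparable with the rest.

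The sequences upstream of these genes share a feature that the list was not chosen by. RefSeq start sites were at hand for 34 of the 40 genes (build GRCh38.p14), and the 250 bases before each start were searched for the AP-1 motif, TGACTCA on either strand (TGAGTCA when read on the other), and for the TATA motif TATAAA on the gene's strand. The AP-1 letters were in the window of all 6 precursor genes that had one, IVL, LORICRIN, SPRR1A, SPRR1B, SPRR2A and SPRR3. The SPRR genes among them are related members of the same family, so their matches may not be independent. They were also before SCEL, SBSN, KRTDAP, DMKN, ECM1 and CASP14, which makes 12 of the 34 genes, where a gene with several starts counts if any window holds them. Among all 27305 genes with a window, 5.19% had the letters by the same count. The 5 genes of the filaggrin family had them in none of their windows. TATAAA was held by 4 of these 5, by 4 of the 6 precursor genes and by 11 of the 34, beside 8.38% of all genes. A match is a description of letters and does not show that a factor binds. The windows of ASPRV1, which is among the 34, lie far from its annotated gene. Of the 14 genes with a window that passed the filter on counts 4 had the AP-1 letters, and of the 20 that did not, 8 had them. The windows shown are those of 5 precursor genes, with the AP-1 letters in capitals, and that of FLG, which has none, each 5′ to 3′ on the strand of the gene and ending at the base before the start.
IVL (chr1:152908296-152908545, plus strand): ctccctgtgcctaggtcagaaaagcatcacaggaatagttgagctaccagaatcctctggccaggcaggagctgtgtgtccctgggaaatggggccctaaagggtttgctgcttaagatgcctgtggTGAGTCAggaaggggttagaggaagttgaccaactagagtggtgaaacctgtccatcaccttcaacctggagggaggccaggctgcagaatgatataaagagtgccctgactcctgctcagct
LORICRIN (chr1:153259437-153259686, plus strand): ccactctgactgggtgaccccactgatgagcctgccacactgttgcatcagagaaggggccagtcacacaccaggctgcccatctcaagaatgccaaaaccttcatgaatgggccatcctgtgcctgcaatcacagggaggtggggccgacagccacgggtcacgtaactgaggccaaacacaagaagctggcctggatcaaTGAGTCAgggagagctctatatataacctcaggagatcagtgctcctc
SPRR1A (chr1:152983831-152984080, plus strand): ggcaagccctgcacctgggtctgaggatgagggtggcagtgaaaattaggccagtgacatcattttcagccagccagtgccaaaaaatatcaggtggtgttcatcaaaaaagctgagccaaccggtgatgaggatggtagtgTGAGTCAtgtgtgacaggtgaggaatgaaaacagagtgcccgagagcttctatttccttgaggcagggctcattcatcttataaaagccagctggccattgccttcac
SPRR1B (chr1:153030953-153031202, plus strand): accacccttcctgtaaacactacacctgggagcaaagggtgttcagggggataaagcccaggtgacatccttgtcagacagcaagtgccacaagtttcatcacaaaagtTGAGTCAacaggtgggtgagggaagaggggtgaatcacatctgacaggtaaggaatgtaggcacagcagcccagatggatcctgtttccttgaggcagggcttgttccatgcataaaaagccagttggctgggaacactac
SPRR3 (chr1:153001499-153001748, plus strand): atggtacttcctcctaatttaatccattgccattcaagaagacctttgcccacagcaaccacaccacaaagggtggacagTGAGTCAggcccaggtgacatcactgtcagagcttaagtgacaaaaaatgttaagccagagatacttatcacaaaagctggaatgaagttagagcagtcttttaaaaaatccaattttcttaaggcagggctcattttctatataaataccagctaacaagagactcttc
FLG (chr1:152325240-152325489, minus strand): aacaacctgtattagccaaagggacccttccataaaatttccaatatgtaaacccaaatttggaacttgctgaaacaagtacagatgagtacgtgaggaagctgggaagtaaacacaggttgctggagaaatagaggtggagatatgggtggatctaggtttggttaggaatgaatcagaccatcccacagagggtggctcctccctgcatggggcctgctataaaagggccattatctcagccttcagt

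**Figure D3:**
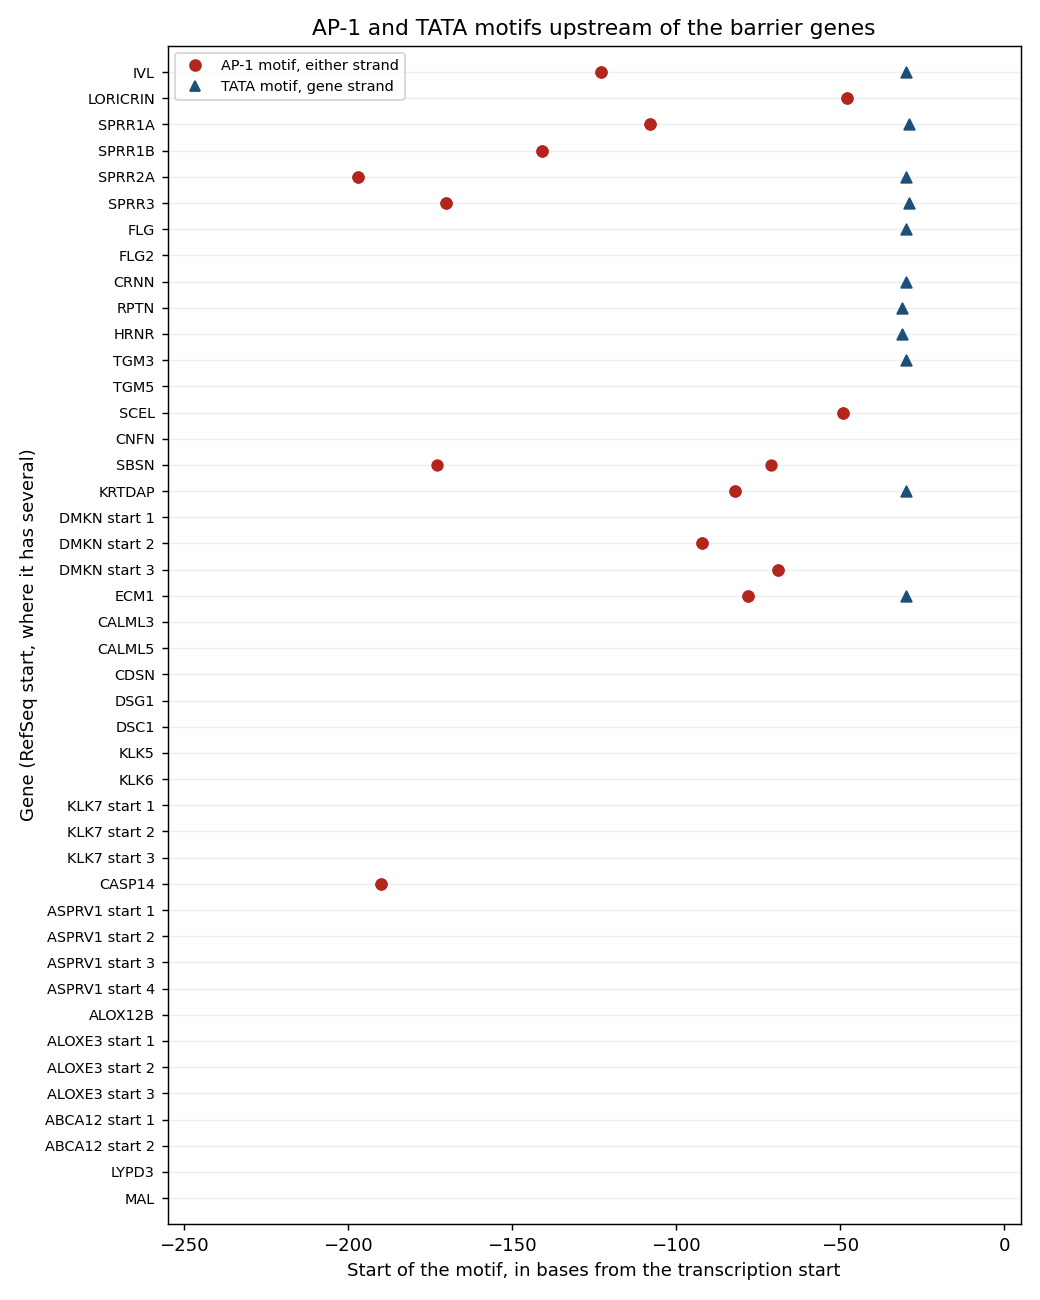
Position of the AP-1 motif (circles, either strand) and of the TATA motif nearest the start (triangles, gene strand). The 250 bases before each of 44 RefSeq starts of 34 barrier genes are shown, in bases from the start. The 6 precursor genes at the top each hold an AP-1 motif, from 48 to 197 bases upstream. The TATA motifs drawn lie about 30 bases upstream, and those farther from the start, as in TGM3, are not drawn.

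In IVL the AP-1 letters in capitals began 123 bases before the start and TATAAA began 30 bases before it. In LORICRIN the AP-1 letters began 48 bases before the start, and in SPRR1B 141 bases before it. The precursor windows were also poor in CpG, with at most 3 in 250 bases, against a median of 11 over all windows. Filaggrin family windows had at most 2 and that of SCEL 1, while the highest count in the other roles ran from 5 to 37.

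The filaggrin family, whose products fill and pack the cornified cell, was transcribed at a low level in both groups. FLG, the filaggrin gene (ENSG00000143631.11, GRCh38 chromosome 1, 152302175 to 152325203, minus strand), had 17.2 and 15.9 CPM with the empty vector and 15.5 and 12.1 CPM with TINCR-HA-FLAG. Both TINCR-HA-FLAG libraries lay below both empty vector libraries. The log2 fold change was -0.27 (95% interval -0.64 to 0.10, adjusted p = 0.654), and it ran from -0.45 without TINCR-HA-FLAG replicate 1 to -0.10 without TINCR-HA-FLAG replicate 2. HRNR, the hornerin gene, had 7.41 and 6.25 CPM against 8.15 and 3.65 CPM, and its groups overlapped (log2 fold change -0.25, 95% interval -0.98 to 0.49). FLG2 had 1.23 and 1.06 CPM against 1.09 and 0.361 CPM, again with overlap (log2 fold change -0.72, 95% interval -1.99 to 0.55, with -1.64 and -0.080 when the same libraries were left out). In FLG, HRNR and FLG2 alike the lowest library was replicate 2 of TINCR-HA-FLAG. RPTN had at most 7 counts and CRNN at most 2. The long FLG gives many counts for few transcripts, and its level per length was 3.12 ± 0.467 TPM (SD, n = 4). Of the exon bases of FLG, 5.52% overlap the antisense gene FLG-AS1, and HRNR, FLG and FLG2 hold repeats of similar sequence in which reads could be shared.

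The filaggrin and precursor genes lie side by side in the epidermal differentiation complex. Between RPTN and LORICRIN (GRCh38 chromosome 1, 152153595 to 153262122) the annotation places 43 protein-coding genes, 12 of them members of the list. Only 4 of the 43, or 9.30%, passed the filter, HRNR, FLG, FLG2 and SPRR1B, all 4 of them list members, and 22 had no count in any library.

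The transglutaminases were represented by TGM1 alone. TGM1, the membrane-bound keratinocyte enzyme that fixes ceramides and proteins to the envelope (ENSG00000092295.12, chromosome 14, 24249114 to 24264432, minus strand), had 40.3 and 43.4 CPM with the empty vector and 40.1 and 46.8 CPM with TINCR-HA-FLAG. The groups overlapped, and the log2 fold change was 0.06 (95% interval -0.21 to 0.32, adjusted p = 0.928). TGM3 had no count, and TGM5 had 4 counts in replicate 2 of the empty vector and none elsewhere.

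By summed CPM, which favours long transcripts, the scaffold of the envelope was the highest of the roles in the list (426 to 505 CPM per library). Per length, PPL was at 124 TPM, EVPL at 35.8 and SCEL at 1.64, beside 59.6 for CSTA and 46.7 for DMKN. PPL, which encodes periplakin (ENSG00000118898.16, chromosome 16, 4882507 to 4960741, minus strand), had 370.4 and 392 CPM with the empty vector and 328 and 367 CPM with TINCR-HA-FLAG. Its groups did not overlap, with replicate 1 of the empty vector close to replicate 2 of TINCR-HA-FLAG, and the log2 fold change was -0.13 (95% interval -0.39 to 0.12, adjusted p = 0.777). EVPL, which encodes envoplakin, the partner of periplakin (ENSG00000167880.8, chromosome 17, 76004502 to 76027452, minus strand), had 109.7 and 111 CPM against 94.1 and 96.9 CPM. Both TINCR-HA-FLAG libraries were below both others, by a log2 fold change of -0.21 (95% interval -0.43 to 0.01, adjusted p = 0.533). SCEL, the sciellin gene, was higher in replicate 1 of TINCR-HA-FLAG (3.96 CPM) than in the other 3 libraries (1.89 to 2.43 CPM), with a log2 fold change of 0.59 (95% interval -0.21 to 1.40, adjusted p = 0.655), or 0.23 without that library.

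Among other proteins of the envelope and the granular layer, DMKN and CSTA had narrow intervals around 0. DMKN, which encodes the secreted protein dermokine (ENSG00000161249.21, chromosome 19, 35497220 to 35513658, minus strand), had 134 and 131 CPM with the empty vector and 127 and 139 CPM with TINCR-HA-FLAG, so that the second group spanned the first. Its log2 fold change was 0.0065 (95% interval -0.22 to 0.23), and its sign flipped with RLE size factors (-0.01). CSTA, which encodes the protease inhibitor cystatin A, had 28.8 and 32.9 CPM against 33.1 and 30.4 CPM (log2 fold change 0.04, 95% interval -0.23 to 0.32). DMKN stands between 2 genes of the same strand that are also known from the upper epidermis, KRTDAP and SBSN. KRTDAP had 1 to 7 counts per library, and SBSN had 3 counts in replicate 2 of TINCR-HA-FLAG and none elsewhere. Per length these neighbours came to 0.770 and 0.0445 TPM, beside 46.7 TPM for DMKN.

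CNFN, which encodes the envelope protein cornifelin, had 2.45 and 3.01 CPM with the empty vector and 2.61 and 4.28 CPM with TINCR-HA-FLAG (log2 fold change 0.36, 95% interval -0.39 to 1.11). ECM1, a secreted matrix protein gene, had 4.79 and 1.59 CPM against 2.55 and 2.79 CPM (log2 fold change -0.25, 95% interval -1.23 to 0.72). The 2 empty vector libraries thus spanned the TINCR-HA-FLAG libraries for ECM1, and the groups overlapped for CNFN as well. CALML5, which encodes a calmodulin-like protein of the differentiating epidermis, had 1 and 2 counts against 7 and 12, and was singled out after its values were seen. Both TINCR-HA-FLAG libraries were above both others, and the ratio of the rates was 5.32 (95% interval 1.57 to 28.1, exact binomial, counting error only). Of 8 genes that did not pass the filter and had at least 10 counts in all, CALML5 and ALOX12B had an interval that left out 1. CALML5 did not pass the filter. In an edgeR fit without one, its unadjusted p was 0.0173, where 6.29% of 37168 genes were under 0.05, and its adjusted p was 0.621, where 0.143% were called.

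The genes of the corneodesmosome, the modified desmosome of the cornified layer, were barely detected. DSG1, which encodes desmoglein 1, had 0.584 and 1.36 CPM with the empty vector and 1.47 and 1.40 CPM with TINCR-HA-FLAG. The groups did not overlap, with 3 of the 4 libraries within 1.36 to 1.47 CPM (log2 fold change 0.56, 95% interval -0.52 to 1.64, adjusted p = 0.785). Without the low library, empty vector replicate 1, the log2 fold change was 0.035, and without empty vector replicate 2 it was 1.29. DSC1 had at most 2 counts in a library, and CDSN, the corneodesmosin gene, had 1 count in all 4 together. Of the exon bases of CDSN 93.8% overlap the antisense gene PSORS1C1.

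The proteases held the 2 genes with the smallest p of the list. KLK5, which encodes a trypsin-like kallikrein of the skin surface (ENSG00000167754.13, chromosome 19, 50943303 to 50953093, minus strand), had 204 and 235 CPM with the empty vector and 146 and 190.3 CPM with TINCR-HA-FLAG. As group means this was 219.8 ± 21.8 against 168 ± 31.3 CPM (SD, n = 2). Both TINCR-HA-FLAG libraries were below both others, and replicate 1 was the lower library in each group. Replicate 1 also had the higher mitochondrial share in each group (9.43% against 7.58%, and 11.4% against 8.66%), whose part in this result was not tested. The log2 fold change was -0.39 (SE 0.14, 95% interval -0.69 to -0.08), with an unadjusted p of 0.0188 and an adjusted p of 0.358. KLK6, its neighbour (ENSG00000167755.15, chromosome 19, 50958631 to 50969673, minus strand), had 108 and 128 CPM against 74.8 and 102 CPM and the same order of libraries. Its log2 fold change was -0.41 (SE 0.15, 95% interval -0.74 to -0.08, unadjusted p = 0.0201, adjusted p = 0.367). Without TINCR-HA-FLAG replicate 2 both genes were called lower, KLK5 at -0.60 (adjusted p = 0.0147) and KLK6 at -0.66 (adjusted p = 0.00201). When TINCR-HA-FLAG replicate 1 was left out instead, both were at -0.20 (adjusted p = 0.783 and 0.762). An unnamed antisense gene shares 12.2% of the exon bases of KLK5 and 20.3% of those of KLK6, and strand was not stated for the counting.

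KLK7, which encodes the chymotrypsin-like partner of KLK5 in shedding of the cornified layer, lies next to KLK6 and had 14 and 8 counts against 8 and 12. Its level per length was 0.610 TPM, beside 136 TPM for KLK6 and 307 for KLK5. CASP14, the caspase of the cornifying cell, had 1 count in all, and ASPRV1, a protease that acts on profilaggrin, had none. In their RefSeq windows KLK5, KLK6, KLK7 and ASPRV1 held neither the AP-1 letters nor TATAAA. The ASPRV1 windows begin at 70086274 on chromosome 2, far from the annotated gene on the minus strand, which ends at 69962265. The bases before the annotated ASPRV1 gene were therefore not searched.

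Other kallikreins of the same cluster were examined because KLK5 and KLK6 had the 2 lowest p of the list. The cluster holds 15 genes, of which 8 passed the filter and none was called. Besides KLK5 and KLK6, which prompted the look, 6 passed the filter. The groups did not overlap in any of these 6 (3 lower, 3 higher), beside 39.6% of all genes tested (17.9% lower, 21.7% higher). Of the 6, 2 had an unadjusted p under 0.05 in edgeR, beside 10.2% of all genes. The cluster was chosen on these data, so the counts are a description. KLK10, named after its values were seen, had 155 and 168 CPM with the empty vector and 105 and 128 CPM with TINCR-HA-FLAG (log2 fold change -0.47, SE 0.12, adjusted p = 0.159 in edgeR and 0.0765 in DESeq2). KLK13, named likewise, had 14.2 and 12.4 CPM against 16.3 and 19.7 CPM (log2 fold change 0.44, SE 0.16, adjusted p = 0.375). In KLK1, KLK5, KLK6, KLK8 and KLK10 the TINCR-HA-FLAG libraries were the lower ones, and in KLK11, KLK13 and KLK14 the higher ones. The log2 fold change was -0.25 for KLK1, -0.72 for KLK8, 0.43 for KLK11 and 0.31 for KLK14.

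**Figure D4:**
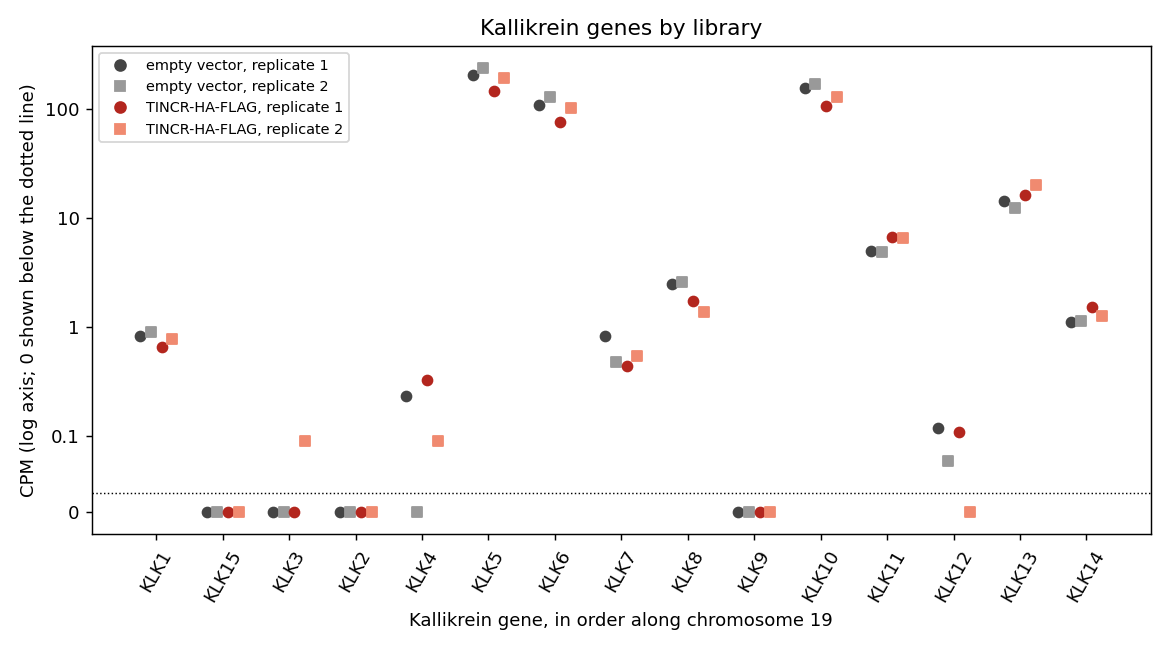
CPM (log axis) of the 15 kallikrein genes in each of the 4 libraries, in their order along chromosome 19, with values of 0 below the dotted line. KLK5, KLK6 and KLK10 are the 3 highest in every library (74.8 to 235 CPM), while KLK7, between KLK6 and KLK8, has 0.434 to 0.817 CPM.

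The lipid barrier genes were examined as published targets of TINCR in epidermis. ALOX12B and ALOXE3 encode the 2 lipoxygenases that act in sequence on the linoleate of barrier ceramides, and ABCA12 encodes the transporter that loads lamellar granules. ABCA12 (ENSG00000144452.15, chromosome 2, 214931542 to 215138428, minus strand) had 17.5 and 14.98 CPM with the empty vector and 16.997 and 14.2 CPM with TINCR-HA-FLAG. Its groups overlapped, and replicate 2 was the lower library in both (log2 fold change -0.06, 95% interval -0.42 to 0.29, adjusted p = 0.940). ALOXE3 had 18 and 13 counts against 10 and 4, that is 1.05 and 0.767 CPM against 0.543 and 0.180 CPM. Both TINCR-HA-FLAG libraries were the lower ones, with a log2 fold change of -1.38 (95% interval -2.84 to 0.08, adjusted p = 0.529), which was -2.29 without TINCR-HA-FLAG replicate 1 and -0.74 without TINCR-HA-FLAG replicate 2. ALOX12B had 4 and 5 counts against 7 and 20 and did not pass the filter. The ratio of its rates was 2.52 (95% interval 1.15 to 6.09, exact binomial, counting error only), and replicate 2 of TINCR-HA-FLAG held 20 of the 27 counts of its group. In the edgeR fit without a filter, ALOX12B had an unadjusted p of 0.0909 and an adjusted p of 0.801. An antisense gene shares 26.8% of the exon bases of ALOX12B. Of the 5 published targets, FLG, ABCA12 and ALOXE3 passed the filter and none was called, while ALOX12B and CASP14 did not pass.

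LYPD3, a Ly6-family surface protein gene of stratified epithelium, had 12.4 and 15.6 CPM with the empty vector and 15.5 and 19.1 CPM with TINCR-HA-FLAG. The groups overlapped, and the log2 fold change was 0.31 (95% interval -0.07 to 0.69, adjusted p = 0.614). SLURP1, which encodes a secreted member of that family, had 1 to 3 counts per library, and MAL, a membrane protein gene of the upper layers of mucosal epithelium, had 2 counts in replicate 2 of TINCR-HA-FLAG and none elsewhere.

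**Figure D5:**
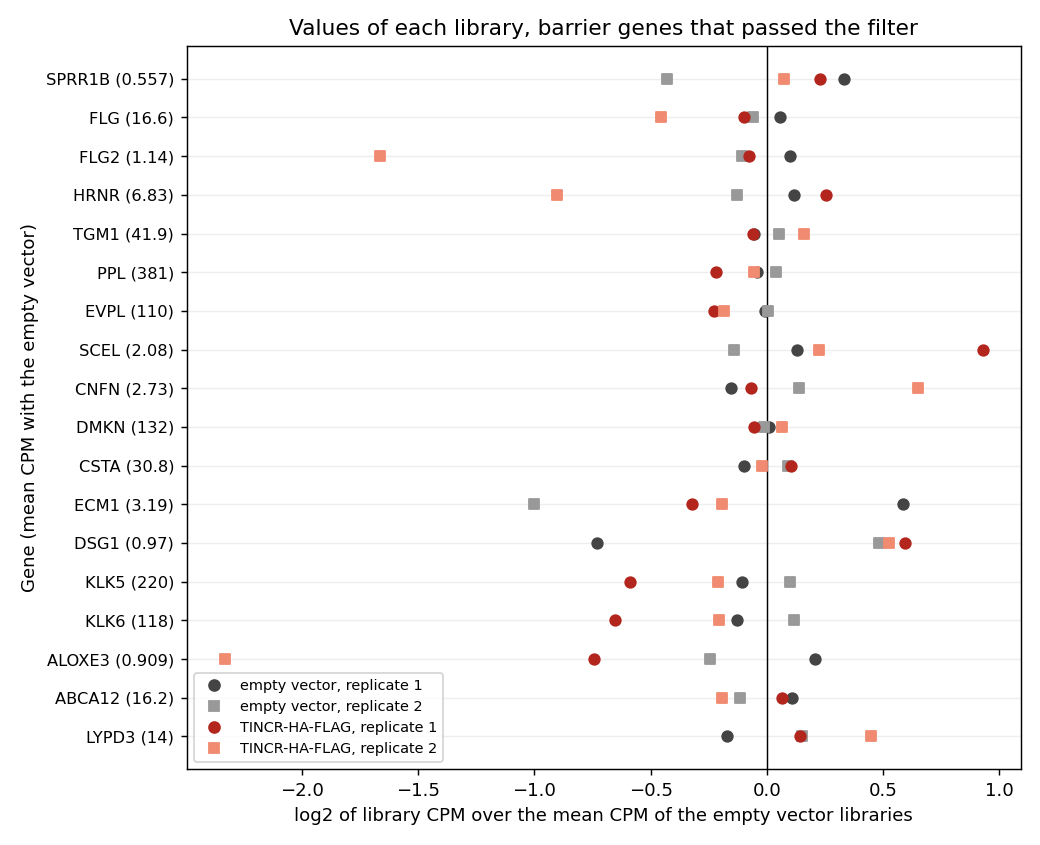
Log2 of the CPM in each library over the mean CPM of the empty vector libraries, for the 18 barrier genes that passed the filter, with that mean in brackets. Well-expressed genes such as DMKN, TGM1 and CSTA lie close to 0 in all 4 libraries, KLK5 and KLK6 have both TINCR-HA-FLAG libraries left of both others, and ALOXE3 and FLG2 lie farthest left in replicate 2 of TINCR-HA-FLAG (0.180 and 0.361 CPM).

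Further genes of the same pathway, 83 in 4 lists drawn up by function, were measured beside the members. Of these, 39 passed the filter and 1 was called, KRT13, beside 0.549% of all genes tested. Among 30 late envelope genes, 2 passed, TCHH and TCHHL1, neither was called, and their median log2 fold change was -0.27. All 18 late cornified envelope (LCE) genes in that list failed the filter, 12 of them with no count, and the most in any library was 8. Among 19 proteases and protease inhibitors, 16 passed with a median of 0.07 and none was called. ST14, which encodes matriptase, the membrane protease upstream of the kallikreins, had 236 and 284 CPM with the empty vector and 221 and 275 CPM with TINCR-HA-FLAG. LGMN, a lysosomal protease gene, had 172 and 195 CPM against 152 and 181 CPM. The groups overlapped for both.

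Among 26 barrier lipid genes, 17 passed with a median of -0.01 and none was called. ELOVL1, a very-long-chain fatty acid elongase gene, had 98.2 and 111 CPM with the empty vector and 91.7 and 104 CPM with TINCR-HA-FLAG. DEGS1, a ceramide desaturase gene, had 65.7 and 71.9 CPM against 70.6 and 70.5 CPM. Both genes overlapped between the groups. Of 8 suprabasal keratin genes 4 passed, all with a positive change (median 0.38). KRT13, a mucosal keratin made above the basal layer, rose from 68.0 and 78.4 CPM to 188 and 216 CPM (log2 fold change 1.47, SE 0.12, adjusted p = 0.00057). Both TINCR-HA-FLAG libraries were far above both others. DESeq2 also called KRT4 (adjusted p = 0.0312), and it called no gene of the other 3 lists, beside 0.943% of all genes tested. At an unadjusted edgeR p under 0.05 there were 3 of 16 protease or inhibitor genes, 1 of 17 lipid genes, 2 of 4 keratins and 0 of 2 late envelope genes, beside 10.2% of all genes. KRT1 and KRT10, the pair of suprabasal keratins of cornifying epidermis, were named after their values were seen. KRT1 had at most 2 counts per library and did not pass the filter. KRT10 had 16.1 and 15.04 CPM with the empty vector and 16.9 and 19.9 CPM with TINCR-HA-FLAG (log2 fold change 0.25, SE 0.15, adjusted p = 0.655).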

How the data were processed

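RNA was extracted with an RNeasy kit and libraries were made with NEBNext Ultra reagents, per the labels' protocols. The table deposited by the authors holds raw counts of reads per Ensembl gene, as its whole numbers show. The submitters' processing notes list bcl2fastq 2.20.0.422, STAR 2.7.9a, DESeq2 1.32.0 and GRCh38 without their roles. How reads were counted, on which strand and with which annotation release is not given in the sources used here, so overlapping antisense genes and close paralogs may share reads. Another 12 library columns that match no sample here were left out. Symbols were matched by Ensembl identifier for 60507 rows. Positions and merged exon lengths came from GENCODE (GRCh38) for 58337 rows, and TPM divides counts by that length.

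Groups came from the sample titles. Counts were scaled by TMM, filtered with filterByExpr, which kept 18771 genes. The test was the quasi-likelihood test of edgeR 4.0.16 (R 4.3.3), with p-values adjusted over all genes by the Benjamini-Hochberg method and called under 0.05. The 95% intervals come from that fit, where each gene has 2 residual degrees of freedom of its own. The intervals use a median of 10.3 degrees of freedom in total, the rest being borrowed from the spread of other genes. The common biological coefficient of variation was 0.118. Intervals of count ratios and the limit of 3 counts cover counting error only, because PCR copies of a molecule were not marked. The tests were tested on simulated counts first.

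The members and lists were chosen with earlier results of these data known. All 40 members are given, those that passed the filter by library. TINCR serves as the check of the labels. From each other list the called genes are named, or with none the 2 of highest mean CPM. Other genes were chosen after their values were seen. Of the other marker lists, 5 of 6 fibroblast, 2 of 4 endothelial and 2 of 4 melanocyte genes passed the filter and none was called. The alternatives were DESeq2 1.42.0, RLE or total-count scaling, other filters, a block for the replicate number, the older dispersion estimate of edgeR, the longest transcript as length, and each library left out.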

Additional observations from a re-analysis of the deposited data

How the results depend on the processing

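With 2 libraries per group a single library could move most results. Over all genes, 103 were called, against 177 with DESeq2, 53 without a filter on low counts, and 124 to 386 with 1 library left out. No barrier gene was called with DESeq2, RLE or total-count scaling, other filters or the legacy dispersion estimate, and 0 to 2 were called with 1 library left out, where the 2 were KLK5 and KLK6 without TINCR-HA-FLAG replicate 2. With the replicate number as a block, 2633 of the 18771 genes tested were called. Among them were 3 of the 18 barrier genes, all lower (EVPL, KLK5 and KLK6, adjusted p = 0.0131, 2.3e-10 and 5.1e-09). Of 39 other pathway genes tested, 8 were called. Same-numbered libraries had deviations from their group means that correlated at 0.37, but with only 2 pairs the libraries share a number and nothing more is known of their pairing. Of the other pathway genes 1 was called, against 2 with DESeq2 (KRT13 and KRT4) and 1 to 2 with 1 library left out. The median over the barrier genes stayed negative under the alternatives tried. Of the 18 barrier genes 10 kept their sign under each of the 11 alternatives in which they were tested, and 8 changed it under some. A minimum of 1 CPM in 2 libraries left 16 of the 18, without ALOXE3 and SPRR1B. DMKN was at -0.012 with DESeq2 and -0.012 with RLE scaling. With 1 library left out, the log2 fold change ran from -0.18 to 0.53 for SPRR1B, -0.90 to 0.25 for HRNR, -0.067 to 0.17 for TGM1, -0.072 to 0.65 for CNFN, -0.062 to 0.072 for DMKN, -0.091 to 0.15 for CSTA, -0.83 to 0.71 for ECM1 and -0.19 to 0.059 for ABCA12. The lone library of a group was then assumed to vary like the other group, and the cause of these shifts was not tested. With the longest transcript as length, LYPD3 came to 24.1 TPM and PPL to 153 TPM. Small changes in the 22 genes that did not pass the filter were not detectable at this depth.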
